A study of Gallus gallus with 12 samples.

Results

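Female and male cells of the embryonic day 12 (E12) chick retina were compared within the same 4 single-cell libraries. A cell was a barcode with at least 2000 UMIs (unique molecular identifiers, 1 per captured RNA molecule). Sex was chosen by the measured count of HINTW, which lies on the W chromosome that only female birds carry: cells with at least 3 HINTW UMIs were called female and cells with none male. This rule gave 3272 female and 11565 male cells, 14837 of the 17141 E12 barcodes of that depth, of 56624 E12 barcodes and of 95805 barcodes in the series. The 2304 cells with 1 or 2 HINTW UMIs were assigned to neither sex. Retinal ganglion cells, the output neurons of the eye, were cells with at least 2 UMIs of POU4F1, POU4F2 and POU4F3 together (476 female, 3928 male). Amacrine cells, interneurons of the inner retina, had at least 2 UMIs of TFAP2A, TFAP2B and TFAP2C together and no POU4F UMI (2141 female, 5633 male).

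The series profiled chick retina with the 10x Genomics 3′ version 2 chemistry, with 4 libraries each of whole retina at E12 and E18 and of ganglion cells purified with a Thy-1 antibody at E16. The E16 libraries came from dorsal or from ventral retina. The E12 libraries came from untreated, specific-pathogen-free eggs. Pigment epithelium and pecten were removed and the retinas dissociated with papain. The labels give no strain, no sex and no number of embryos per library, so nothing says whether the 4 libraries held different embryos. A difference between the sexes and a difference between embryos cannot be told apart, and p-values measure the spread between these libraries, which may be technical.

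Male chickens carry a pair of Z chromosomes and females carry 1 Z and 1 W. Birds do not silence a whole Z chromosome in males, and Z-linked dosage is balanced gene by gene and incompletely. Most W genes are the surviving partners of Z genes, called gametologs, and HINTW, a relative of the Z gene HINT1Z, is present in many copies on the chicken W. A region of the chicken Z called MHM gives noncoding RNA in females and not in males.

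The E12 libraries held 14066 to 14225 barcodes and 25226502 to 27655687 UMIs, with a median of 1569 to 1745 UMIs per barcode. Each library gave 657 to 1005 female and 2585 to 3305 male cells, which were summed by sex. Over all cells, the sexes did not differ in depth by more than the range over libraries, with median UMIs of 2433 to 2496 in female and 2451 to 2495 in male cells. Female amacrine cells were deeper than male amacrine cells in every library, with medians of 2392 to 2457 against 2330 to 2391 UMIs. Of the barcode sequences, 1640 occurred in 2 of the libraries and 25 in 3. Marker genes of microglia summed to at most 2.32 CPM (UMIs of a gene scaled to a total of 1000000 UMIs) in any sum of all cells, and the endothelial genes CDH5 and TEK had no UMI. Hemoglobin genes differed most between libraries, from 9.29 to 1361 CPM in the female and from 3.29 to 3261 CPM in the male sums. A doublet score marked 49.4% ± 5.75 (SD, n = 4 libraries) of female and 30.8% ± 2.70 of male cells. The part of doublets in the results was not tested beyond the values without scored cells that are given below.

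HINTW chose the cells, so its level is a description. It stood at 2238, 2300.0, 2217 and 2258 CPM in the female cells of libraries 1 to 4. Female ganglion cells held 1632, 1595, 1410 and 1665 CPM, below the 2415, 2443, 2431 and 2370.0 CPM of female amacrine cells in every library. At the edges of the rule, 723 cells held 3 HINTW UMIs, 779 held 2 and 1525 held 1. The 4 libraries of E18 retina, with 66680183 UMIs, held no HINTW UMI, which allows at most 0.045 CPM, so no sex comparison could be made there.

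Readouts that the rule did not use changed with the HINTW count. The 10 other W genes that had at least 10 UMIs at E12 and under 0.1 CPM at E18 summed to 3.11 ± 0.66 CPM (SD, n = 4 libraries) in cells with no HINTW UMI. They summed to 34.7 ± 3.05 CPM in cells with 1 or 2, to 80.5 ± 2.48 CPM with 3 or 4, and to 106 ± 8.11 CPM with 5 or more. The share of UMIs from Z-linked genes ran the other way, at 4.76% ± 0.032 with no HINTW UMI, 4.52% ± 0.031 with 1 or 2, 4.10% ± 0.031 with 3 or 4 and 3.74% ± 0.024 with 5 or more. Cells with 1 or 2 HINTW UMIs thus lay between the sexes in both readouts. The same order held in ganglion cells, where the W genes ran from 2.41 to 28.9, 68.3 and 106 CPM and the Z share from 5.09% to 4.84%, 4.38% and 3.95%. In amacrine cells the W genes ran from 3.49 to 37.9, 75.5 and 109 CPM and the Z share from 4.49% to 4.34%, 4.04% and 3.71%.

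**Figure D1:**
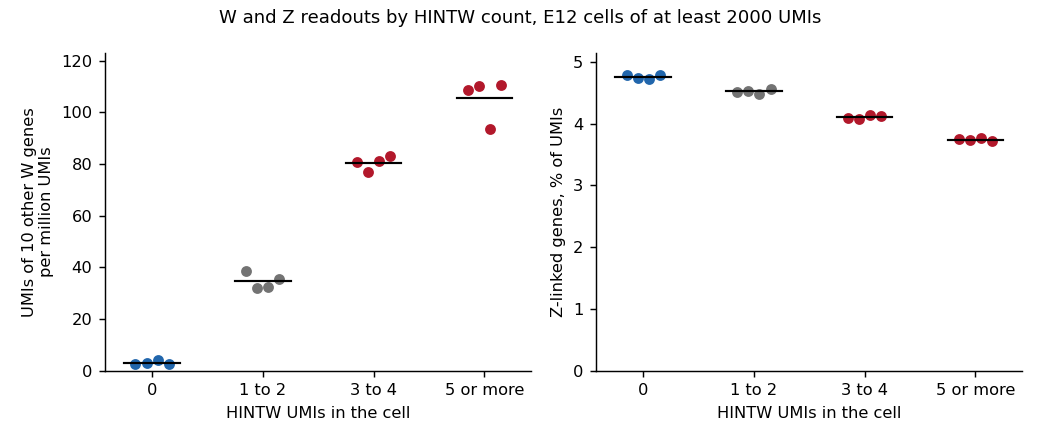
Summed CPM of 10 W genes other than HINTW (left) and percent of UMIs from Z-linked genes (right) against the number of HINTW UMIs in the cell (0, 1 to 2, 3 to 4, 5 or more); each point is 1 of the 4 E12 libraries. The W genes rise from 3.11 to 106 CPM and the Z share falls from 4.76% to 3.74% on average as HINTW UMIs increase.

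The reference gene table places 49 genes of the files on W, of which 16, HINTW included, had at least 10 UMIs over the sums. Of these, 8 genes other than HINTW were abundant enough to test in all cells. Those near 0 in male cells passed that filter through their female sums and had to differ, so their values are a description. UBE2R2L, a copy of a ubiquitin-conjugating enzyme gene, stood at 15.7, 12.6, 11.2 and 15.1 CPM in female and at 0.437, 0.451, 1.07 and 0.132 CPM in male cells of libraries 1 to 4, a log2 difference (female minus male) of 4.61 ± 0.31 (SE; edgeR adjusted p = 9.0e-16). HNRNPKL, a copy of an RNA-binding protein gene, stood at 22.05, 23.3, 20.4 and 20.3 CPM against 0.582, 0.789, 1.34 and 0.526 CPM, a difference of 4.67 ± 0.24 (SE; edgeR adjusted p = 6.5e-20). LOC431003 stood at 24.95, 27.7, 26.9 and 25.5 CPM against 1.02, 0.563, 0.402 and 0.526 CPM, a difference of 5.34 ± 0.23 (SE; edgeR adjusted p = 3.6e-22). The lowest female sum of each of these genes lay far above the highest male sum. LOC425347, LOC107049174, LOC107049459 and SMAD7B, a copy of an inhibitory SMAD gene, had log2 differences of 5.97, 5.45, 4.41 and 3.56. NEDD4L, a ubiquitin ligase gene, stood at 37.1, 35.5, 38.1 and 33.6 CPM in female and 50.2, 42.5, 45.2 and 47.6 CPM in male cells, a difference of -0.38 ± 0.09 (SE; edgeR adjusted p = 9.3e-04). It was the only one of the 8 whose male level was close to the female one, and it stood at 52.2 CPM at E18, where HINTW had no UMI. The other 7 W genes, with 2 to 24 UMIs in the female and 2 to 24 in the male sums, were too low to test.

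Several Z and W partners carry the letters Z and W in the deposited symbols, and the results on these pairs come from lists completed after the symbols and values had been seen. HINT1Z, a histidine-triad nucleotide hydrolase gene, stood at 545, 523, 585 and 533 CPM in female and 781, 766, 809.6 and 809 CPM in male cells, with a difference of -0.56 ± 0.03 (SE; edgeR adjusted p = 6.2e-20). ATP5A1Z, which encodes the alpha subunit of mitochondrial ATP synthase, stood at 157, 138, 148 and 148 CPM against 213, 197, 198 and 214 CPM, a difference of -0.50 ± 0.05 (SE; edgeR adjusted p = 7.0e-11). Female and male sums did not overlap for either gene, and females were lower. ATP5A1W, its partner, stood at 16.8, 22.2, 21.4 and 17.97 CPM in female and 0.291, 0.563, 0.671 and 0.263 CPM in male cells, a difference of 5.34 ± 0.26 (SE; edgeR adjusted p = 2.4e-20). SPIN1Z, which encodes a reader of histone methylation, stood at 224, 240.4, 224 and 218 CPM against 280.2, 286, 286 and 256 CPM, a difference of -0.31 ± 0.04 (SE; edgeR adjusted p = 4.4e-07). Its W partner SPIN1W stood at 37.1, 39.1, 35.8 and 30.7 CPM against 1.31, 1.01, 1.34 and 1.97 CPM, a difference of 4.63 ± 0.19 (SE; edgeR adjusted p = 2.5e-23). ATP5A1W and SPIN1W were near 0 in males and well below their Z partners in females. Both passed the filter through their female sums and had to differ, so their values are a description.

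A list of 43 gametolog names, of which 25 were in the files and tested over all cells, had 8 members higher and 15 lower in female cells. Beside this, 11.3% of all tested genes were higher and 13.3% lower, and 40.5% of Z genes were lower. The higher members included W copies near 0 in male cells, such as UBE2R2L, HNRNPKL and SPIN1W, which had to differ. Adding the W partner's UMIs to those of its Z partner gave female levels closer to the male ones for the pairs of ATP5A1Z, SPIN1Z, ST8SIA3Z, HNRNPK, MIER3 and ZFR, and not for those of SMAD2Z, SMAD7, UBE2R2 and HINT1Z. The summed pair ATP5A1Z and ATP5A1W differed by -0.30 ± 0.058 (log2, mean and SD of 4 libraries), and the pair SPIN1Z and SPIN1W by -0.085 ± 0.049. The pairs MIER3 and MIER3L and SMAD7 and SMAD7B came to 0.14 ± 0.29 and 0.14 ± 0.17. The pairs ST8SIA3Z and ST8SIA3W (a sialyltransferase), ZFR and ZFRL1 (an RNA-binding zinc finger protein) and HNRNPK and HNRNPKL came to 0.055 ± 0.080, 0.039 ± 0.051 and -0.099 ± 0.10. Values above 0 were found for SMAD2Z and SMAD2W (a transducer of TGF-β signals) at 0.26 ± 0.052 and for UBE2R2 and UBE2R2L at 0.49 ± 0.22. Of the Z members, ST8SIA3Z, ZFR, HNRNPK and MIER3 were lower in female cells, at -0.29, -0.19, -0.25 and -0.41. SMAD2Z, UBE2R2 and SMAD7 did not pass the test, at -0.08, -0.22 and 0.07 with edgeR adjusted p of 0.6, 0.2 and 0.48. In female cells the W partner supplied 5.03% (SMAD7B) to 38.3% (UBE2R2L) of its pair's UMIs, and HINTW supplied 80.5% of the pair with HINT1Z. HINTW chose the cells, so its share and the summed level of its pair depend on the rule and are a description. Near-identical partners can share reads, and how the authors' counting split such reads is not given in the sources used here. Male cells held 1.60% (MIER3L) to 8.09% (SMAD7B) of the female W level, and whether this came from free RNA, shared reads or unsexed female molecules was not tested.

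Other genes with female-limited levels were not placed by the table. They were near 0 in male cells, passed the filter through their female sums and had to differ, so their values are a description. NIPBLL, a copy of a cohesin-loader gene, stood at 28.4, 32.1, 35.8 and 26.9 CPM in female and 0.582, 0.451, 2.15 and 1.18 CPM in male cells, a difference of 4.80 ± 0.21 (SE; edgeR adjusted p = 1.3e-21). LOC112530494 was the most abundant of them, at 146, 159, 145 and 164 CPM against 2.91, 2.93, 2.15 and 1.97 CPM, a difference of 5.91 ± 0.10 (SE; edgeR adjusted p = 8.9e-37). It followed the HINTW count, from 2.49 CPM with no HINTW UMI to 31.7, 90.5 and 197 CPM in the higher groups. TERAL2, MIER3L, ZFRL1, SMAD2W and ST8SIA3W differed by 5.54, 5.68, 5.02, 5.12 and 4.94.

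**Figure D2:**
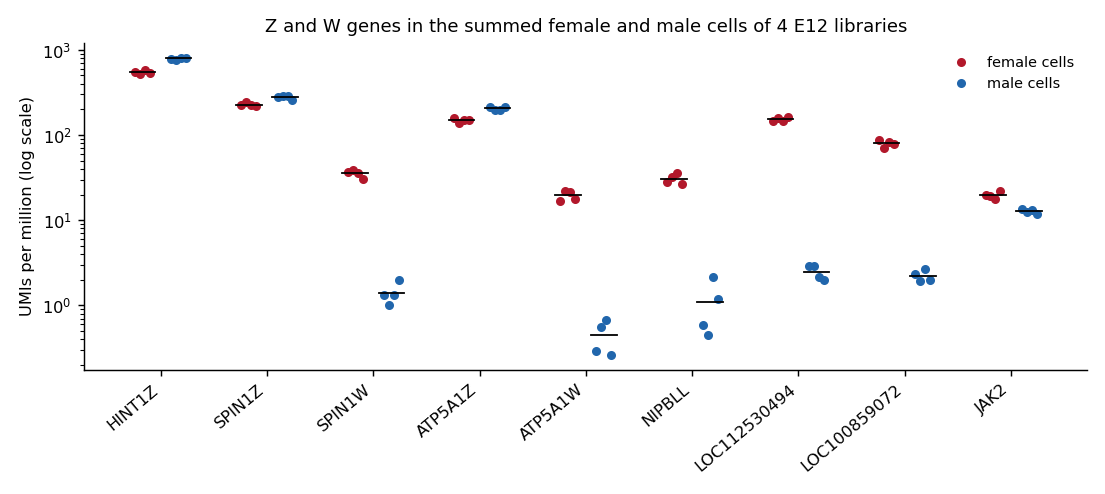
CPM (log axis) of Z and W genes in the summed female and male cells; each point is 1 of 4 E12 libraries and the bar is their mean. The Z members HINT1Z, SPIN1Z and ATP5A1Z sit lower in female cells by 0.31 to 0.56 log2 units, while SPIN1W, ATP5A1W, NIPBLL, LOC112530494 and the Z-linked LOC100859072 are near 0 in males.

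Over all cells, 2792 of 11357 genes tested besides HINTW differed between the sexes at an edgeR adjusted p under 0.05 (24.6%), 1278 higher (11.3%) and 1514 lower (13.3%) in female cells. Female cells were above male cells in each of the 4 libraries for 21.2% of the genes and below for 18.6%. Z-linked genes leaned to lower female levels. Of 491 Z-linked genes tested, 199 (40.5%) were lower and 12 (2.44%) higher in female cells, and 83.7% had a difference below 0. Their median log2 difference was -0.26, a female level of 0.833 of the male, against 0.016 for placed genes off Z and W. Medians of the 32 other chromosomes with tested genes ran from -0.063 to 0.054. A difference of -1, the size of 1 gene copy against 2, was passed by 11 of 491 Z genes. It was also passed by 139 of 9820 placed genes off Z and W. Within ganglion cells 6 of 407 Z genes passed it, beside 74 of 8027 off Z and W. Within amacrine cells these counts were 3 of 445 and 11 of 8834.

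The lower Z level was present in each class. In ganglion cells 844 of 9153 tested genes differed (9.22%), 412 higher (4.5%) and 432 lower (4.72%) in females, and of 407 Z genes 55 (13.5%) were lower and 8 (1.97%) higher. Their median was -0.24, against 0.026 off Z and W. In amacrine cells 555 of 10139 genes differed (5.47%), 290 higher (2.86%) and 265 lower (2.61%), and of 445 Z genes 85 (19.1%) were lower and 3 (0.674%) higher. Here the median was -0.22, against 0.012 off Z and W. In either class female cells were above male cells in every library for 13% (ganglion) and 9.45% (amacrine) of all tested genes, and below for 12.4% and 13.9%.

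Library by library, Z genes of at least 50 CPM gave medians of -0.27, -0.31, -0.25 and -0.28 in all cells (125 genes), and the mean over libraries was -0.27 ± 0.026 against 0.026 ± 0.0054 for genes off Z and W. Ganglion cells gave -0.27, -0.26, -0.30 and -0.28 (127 genes), and amacrine cells -0.26, -0.27, -0.22 and -0.28 (117 genes). No library stood apart. Z-linked genes supplied 3.90%, 3.85%, 3.93% and 3.88% of UMIs in female and 4.79%, 4.73%, 4.73% and 4.78% in male cells of libraries 1 to 4. The difference was -0.87 ± 0.046 percentage points (SD, n = 4), a ratio of 0.817, with an exact two-sided permutation p of 0.13, the smallest that 4 pairs allow. Within ganglion cells the shares were 4.18% and 5.09%, and within amacrine cells 3.83% and 4.49%, again with every female value below every male value and an exact p of 0.13. These shares depend on which cells are scored female: with at least 5 HINTW UMIs the difference over all cells was -1.02 percentage points.

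**Figure D3:**
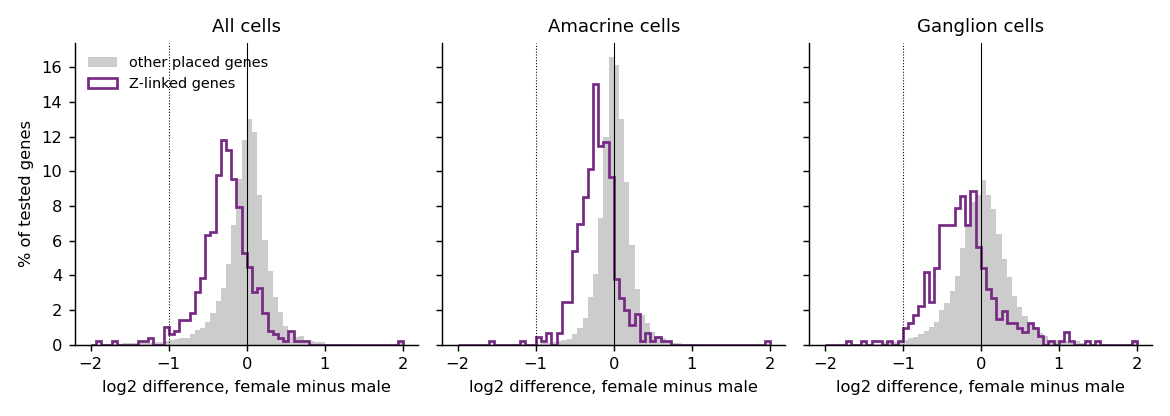
Log2 female minus male difference of Z-linked genes (purple line) and of other placed genes (grey), as percent of tested genes per bin, in all cells (left), amacrine cells (middle) and ganglion cells (right); values beyond 2 in either direction are drawn in the end bins, and lines mark 0 and -1. The medians of the Z genes are -0.26, -0.22 and -0.24 and other genes near 0.

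By role, the first list held Z genes of translation and energy metabolism. Of 21 such genes in the files and tested, 3 of them not placed by the table, 15 were lower and 0 higher in female cells over all cells (edgeR; 17 lower and 1 higher at an unadjusted p under 0.05, and 14 lower and 0 higher by DESeq2), with a median of -0.36 against 0.01 for all tested genes. Beside this, 13.3% of all tested genes and 40.5% of Z genes were lower over all cells. In ganglion cells 13 of 20 were lower and 1 was higher (15 and 1 unadjusted, 8 and 0 by DESeq2; median -0.40), beside 4.72% of all tested genes and 13.5% of Z genes. In amacrine cells 12 of 21 were lower and 0 higher (14 and 0 unadjusted, 12 and 0 by DESeq2; median -0.30), beside 2.61% and 19.1%. RPS23, a protein of the small ribosomal subunit, stood at 3684, 3784, 3876 and 3800.2 CPM in female and 4739, 4797, 4800.4 and 4882 CPM in male cells, a difference of -0.37 ± 0.01 (SE; edgeR adjusted p = 5.8e-32). RPL17, of the large subunit, stood at 2599, 2537, 2679.6 and 2694 CPM against 3530.2, 3483, 3510.1 and 3705 CPM, a difference of -0.46 ± 0.01 (SE; edgeR adjusted p = 9.2e-32). COX7C, a subunit of cytochrome c oxidase, stood at 1114, 1033, 1131 and 1065 CPM against 1472, 1461, 1482 and 1470.2 CPM, a difference of -0.46 ± 0.02 (SE; edgeR adjusted p = 1.0e-22). Female sums of these abundant genes lay below every male sum. RPS6, NDUFS4 (a complex I subunit) and TXN (thioredoxin) were lower, at -0.36, -0.37 and -0.35. RPL37 differed by only -0.13 ± 0.01 (SE; edgeR adjusted p = 2.8e-19) over all cells, and in amacrine cells it did not pass the test, at 0.02 ± 0.01 (SE; edgeR adjusted p = 0.44).

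The second list held Z-linked neuronal genes. Over all cells 13 of 23 tested were lower and 1 higher in females (15 and 1 unadjusted, 10 and 1 by DESeq2), with a median of -0.41, beside 40.5% of Z genes lower. The lower share of ganglion cells among female cells (below) moved with these sums, and its part in them was not tested. In ganglion cells 7 of 22 were lower and 0 higher (11 and 2 unadjusted, 4 and 0 by DESeq2; median -0.28), beside 13.5% of Z genes. In amacrine cells 4 of 23 were lower and 0 higher (5 and 1 unadjusted, 3 and 0 by DESeq2; median -0.06), a share near the 19.1% of all Z genes. SYT4, a synaptic vesicle protein, stood at 301, 253, 253 and 230.2 CPM in female and 487, 405, 411 and 434 CPM in male cells, a difference of -0.77 ± 0.04 (SE; edgeR adjusted p = 8.6e-19). It was also lower within ganglion (-0.36) and amacrine cells (-0.44). NREP, a regulator of neuronal growth, was lower, at -0.71 over all cells, -0.58 in ganglion and -0.34 in amacrine cells. PTPRD, a receptor phosphatase of synapses, was lower, at -0.70 in ganglion cells and did not pass in amacrine cells, at -0.08 ± 0.06 (SE; edgeR adjusted p = 0.59). LINGO2, a leucine-rich membrane protein, and CNTFR, the ciliary neurotrophic factor receptor, were lower in ganglion cells, at -0.45 and -0.86. CNTFR was called in only 5 of 16 alternatives in ganglion cells. NTRK2, the receptor of brain-derived neurotrophic factor, stood at 3.70, 2.86, 9.43 and 5.15 CPM in female and 18.3, 11.5, 19.999 and 14.9 CPM in male amacrine cells, a difference of -1.57 ± 0.25 (SE; edgeR adjusted p = 3.3e-06). Female and male amacrine values did not overlap, whereas in ganglion cells NTRK2 did not pass the test, at 0.40 ± 0.24 (SE; edgeR adjusted p = 0.35).

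The third list held Z-linked regulators of retinal development. Of 18 tested over all cells, 5 were lower and 1 higher in females (6 and 4 unadjusted, 4 and 1 by DESeq2), with a median of -0.12, beside 40.5% of Z genes lower. Only 17 of the 18 were placed on Z, with the same 5 and 1 calls and a median of -0.09. In ganglion cells 2 of 14 were lower and 1 higher (3 and 3 unadjusted, 1 and 1 by DESeq2; median -0.04), a share near the 13.5% of all Z genes. In amacrine cells 2 of 17 were lower and 0 higher (4 and 1 unadjusted, 1 and 0 by DESeq2; median -0.12), beside 19.1% of Z genes. ISL1, a LIM-homeodomain factor of ganglion and other retinal neurons, stood at 285, 242, 261 and 242 CPM in female and 344, 341, 333 and 331 CPM in male cells, a difference of -0.42 ± 0.04 (SE; edgeR adjusted p = 3.7e-10). Within ganglion cells it was lower, at -0.26, and within amacrine cells it did not pass, at 0.01 ± 0.06 (SE; edgeR adjusted p = 0.96). NR2F1, a nuclear receptor, was lower, at -0.27 over all cells and -0.32 in amacrine cells, but with a minimum of 3000 UMIs per cell its differences were 0.017 and 0.020. ELAVL2, a neuronal RNA-binding protein, was lower, at -0.55 in ganglion cells, and the bZIP factor NFIL3, at -0.24 in amacrine cells, a call held in 7 of 15 alternatives. NFIB, a nuclear factor I family member, was higher in female cells, by 0.19 over all cells and 0.66 in ganglion cells.

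The largest male excess among Z genes of at least 50 CPM was that of SLC24A2, a sodium, calcium and potassium exchanger. It stood at 56.9, 32.9, 49.3 and 41.1 CPM in female and 149, 128, 134 and 146 CPM in male cells, a difference of -1.68 ± 0.07 (SE; edgeR adjusted p = 1.3e-23). GNG10, a G-protein gamma subunit, stood at 371, 297, 373 and 357 CPM against 843, 733, 801 and 871 CPM, a difference of -1.24 ± 0.03 (SE; edgeR adjusted p = 4.9e-30). Female values lay far below male values for both, and both differences went past -1. Both genes stood several times higher in ganglion than in amacrine cells, and female cells held the lower share of ganglion cells (below), whose part in these values was not tested beyond the values within classes. Within ganglion cells the differences were smaller, at -0.80 ± 0.09 (SE; edgeR adjusted p = 2.8e-15) for SLC24A2 and -0.95 ± 0.05 (SE; edgeR adjusted p = 5.0e-60) for GNG10. Within amacrine cells GNG10 was lower, at -0.43, and SLC24A2 did not pass, at 0.04 ± 0.27 (SE; edgeR adjusted p = 0.97). PHF24, HMGCS1 (an enzyme of cholesterol synthesis) and PDZD2 followed, at -1.28, -0.96 and -0.92 over all cells and -0.54, -0.72 and -0.50 within ganglion cells. In amacrine cells HMGCS1 was lower, at -0.60, while PHF24 and PDZD2 did not pass, at 0.29 and -0.01.

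Against this trend, 12 Z genes were higher in female cells. LOC100859072, a Z-linked noncoding RNA gene, stood at 87.6, 70.9, 83.2 and 77.5 CPM in female and 2.33, 1.92, 2.68 and 1.97 CPM in male cells, a difference of 5.13 ± 0.13 (SE; edgeR adjusted p = 9.3e-31). Like the W genes near 0 in male cells, it passed the filter through its female sums and had to differ, so its values are a description. Its ganglion difference was 4.9992 and its amacrine difference 5.04, and female and male values did not overlap in either class. Among E16 ganglion cells sexed in the same way it stood at 70.5 to 88.5 CPM in female and 0 to 2.24 CPM in male cells of 4 libraries. JAK2, a cytokine-signalling kinase gene and the 4th tested gene after it in the table's order, stood at 19.7, 19.2, 17.7 and 22.2 CPM against 13.4, 12.5, 13.01 and 11.7 CPM, a difference of 0.62 ± 0.14 (SE; edgeR adjusted p = 6.5e-04). It was higher in amacrine cells by 0.68 and did not pass in ganglion cells, at 0.46 ± 0.36 (SE; edgeR adjusted p = 0.53). Of the 20 tested Z genes nearest to LOC100859072 in gene order, 10 on each side, 9 had a difference above 0, with a median of -0.058. Beside this, 83.7% of all tested Z genes were below 0 and their median was -0.26. Within ganglion cells 4 of 13 tested neighbours were above 0, with a median of -0.21, near the -0.24 of all Z genes there. Within amacrine cells 7 of 16 were above 0, with a median of -0.031, beside -0.22 for all Z genes. Among the 20, JAK2 alone was called higher over all cells. The neighbours LOC107052277, SLC1A1 (a glutamate transporter) and RCL1 were lower, by -0.61, -0.60 and -0.49.

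RBP4, the retinol-binding protein gene, stood at 349.9, 494, 339.7 and 486 CPM in female and 261, 245, 232 and 250.1 CPM in male cells, a difference of 0.72 ± 0.06 (SE; edgeR adjusted p = 9.2e-14). It was higher in amacrine cells by 0.44 and in ganglion cells by 0.48, where library 1 ran the other way (85.4 against 153 CPM). RBP4 is also one of the photoreceptor markers used here. Their summed level, RBP4 included, was 889 to 1090 CPM in female and 644 to 672 CPM in male cells. A sum without RBP4 was not made, so this is no separate evidence on photoreceptors. MEGF10 (an engulfment receptor), EGFLAM (a matrix protein of photoreceptor synapses), RASGRF2 and FOXD1 (a forkhead factor of temporal retina) were higher by 0.56, 0.50, 0.44 and 0.44 over all cells, and none of these 4 passed within ganglion or amacrine cells. The FOXD1 call held in 6 of 15 alternatives. ST8SIA5 (a sialyltransferase), RNF165 (a ubiquitin ligase) and SSBP2 (a DNA-binding cofactor) were higher by 0.25, 0.16 and 0.15, calls that held in only 8, 6 and 2 of 15 alternatives. ENC1, an actin-associated kelch protein, was higher by 0.19 over all cells, by 1.37 in ganglion cells, and lower, at -0.23 in amacrine cells.

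Female and male cells differed in the classes they held. Ganglion cells were 16.3%, 13.7%, 15.1% and 13.6% of female cells and 37.3%, 30.0%, 34.6% and 34.9% of male cells in libraries 1 to 4. Every female value lay below every male value, and the mean difference was -19.5 ± 2.30 percentage points (SD, n = 4; exact two-sided permutation p = 0.13, the smallest possible). Amacrine cells were 64.2%, 65.4%, 66.3% and 65.6% of female and 46.0%, 51.0%, 49.6% and 47.6% of male cells, a difference of 16.8 ± 1.80 points with the same exact p of 0.13. With the class called after thinning every cell to 2000 UMIs, and sex still called from all UMIs, the differences were -18.6 and 16.8 points. Female ganglion cells held less HINTW than female amacrine cells (above), but these levels are only of cells that the HINTW rule kept. Female ganglion cells were also deeper, with medians of 2733 to 2855 against 2392 to 2457 UMIs in female amacrine cells. The part of the HINTW rule in these shares was not tested. Seen the other way, females were 10.8% ± 1.13 of sexed ganglion cells, 27.5% ± 0.85 of amacrine cells and 24.5% ± 1.13 of other cells.

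The size and direction of this difference moved with the sexing rule. Sexed by the 10 W genes with almost no UMI at E18 in place of HINTW, the ganglion difference was -11.0 points and the amacrine difference 9.77. Under that rule cells with at least 1 UMI of these genes were female and cells with none male. The genes summed to only 80.5 and 106 CPM in cells with 3 or 4 and 5 or more HINTW UMIs. Many female cells of this depth thus held none and counted as male, and the part of this in the values was not tested. Sexed by all W-placed genes other than HINTW, the differences reversed to 9.34 and -4.44 points, under a rule that counts NEDD4L, which male cells and E18 retina also held. Without scored doublets the ganglion difference was -23.3 points.

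**Figure D4:**
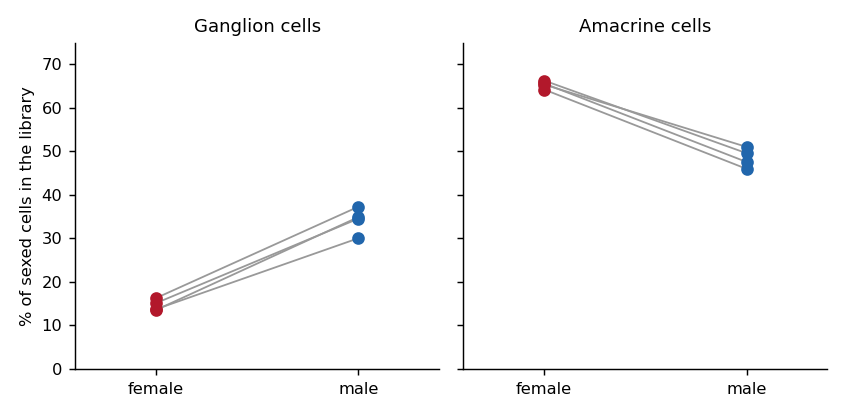
Ganglion cells (left) and amacrine cells (right) as a percentage of the sexed cells of each sex; lines join the female and male cells of 1 library (n = 4). Female cells hold 13.6% to 16.3% ganglion cells and male cells 30.0% to 37.3%.

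Over all cells, genes on other chromosomes that were lower in female cells included SYT13 (a synaptotagmin), POU4F2, CCK (the neuropeptide cholecystokinin) and IRX4 (an Iroquois factor), at -1.83, -1.76, -1.67 and -1.60. POU4F2, a POU factor of ganglion cells, stood at 87.04, 91.6, 116 and 89.8 CPM in female and 352, 291, 325 and 323 CPM in male cells, without overlap. Of the whole ganglion marker list, 9 of 9 tested genes were lower, beside 13.3% of all tested genes (median -1.34), with a summed level of 992 to 1118 CPM in female against 2135 to 2593 CPM in male cells. Amacrine markers were higher in 8 of 9 (median 0.35; 5053 to 5483 against 3964 to 4552 CPM), photoreceptor markers in 5 of 7, bipolar markers in 4 of 5, horizontal cell markers in 2 of 5, progenitor or glial markers in 3 of 7 and cycling markers in 2 of 4, beside 11.3% of all tested genes higher. Higher in female cells were PHGDH, CHAC1, STC2 and ALDH18A1, described below, at 2.65, 2.49, 2.08 and 1.32. In these sums, a different mix of cells and a different level per cell cannot be told apart, so the remaining comparisons are within a class. Markers of other cells also differed between the sexes within classes (below), so these comparisons may still hold a different mix. DESeq2 called 1238 genes over all cells, 490 higher and 748 lower in females.

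Within ganglion cells, genes of serine, asparagine and proline synthesis and of the amino acid response were higher in female cells, many of them several-fold. PHGDH, the first enzyme of serine synthesis, stood at 803, 596, 521 and 566 CPM in female and 53.4, 46.9, 54.5 and 52.1 CPM in male ganglion cells of libraries 1 to 4. Its log2 difference was 3.56 ± 0.09 (SE; edgeR adjusted p = 7.8e-169). All 4 female values lay about an order of magnitude above the male ones. STC2, which encodes the secreted glycoprotein stanniocalcin 2, stood at 228, 193, 149 and 110.2 CPM against 11.3, 9.58, 15.8 and 9.35 CPM, a difference of 3.86 ± 0.16 (SE; edgeR adjusted p = 3.1e-83). CHAC1, a glutathione-degrading enzyme, stood at 187, 93.001, 118 and 119 CPM against 7.43, 8.92, 12.7 and 11.4 CPM, a difference of 3.63 ± 0.18 (SE; edgeR adjusted p = 1.0e-63). DDIT3, the stress transcription factor also called CHOP, stood at 1179.9, 906, 900.0 and 879 CPM against 202, 224, 238 and 201 CPM, a difference of 2.14 ± 0.06 (SE; edgeR adjusted p = 2.0e-139). Again no library overlapped between the sexes. ASNS, asparagine synthetase, stood at 240.4, 153, 183 and 185 CPM against 46.01, 45.6, 53.1 and 37.8 CPM, a difference of 2.03 ± 0.13 (SE; edgeR adjusted p = 3.1e-46). ATF4, the transcription factor that induces many of these genes, stood at 943, 906, 887 and 876 CPM against 545, 549, 556 and 549 CPM, a smaller difference of 0.70 ± 0.05 (SE; edgeR adjusted p = 4.9e-31).

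The proline enzymes PYCR1 and ALDH18A1 were higher by 2.37 and 2.51, the serine enzyme PSPH by 2.03 and the mitochondrial folate enzyme MTHFD2 by 2.04. The amino acid transporters SLC7A3, SLC7A5 and SLC1A4 were higher by 2.28, 1.67 and 1.64. ATF3, ADM2, VEGFA and DDIT4, which inhibits mTORC1, were higher by 3.01, 3.59, 2.30 and 1.62. PSAT1, the serine enzyme between PHGDH and PSPH, lies on Z and was higher in female ganglion cells, at 18.98, 28.6, 23.5 and 23.8 CPM against 9.56, 10.6, 11.6 and 10.02 CPM, a difference of 1.18 ± 0.32 (SE; edgeR adjusted p = 0.0043). This PSAT1 call held in 9 of 15 alternatives, and over all cells PSAT1 did not pass, at 0.34 (edgeR adjusted p = 0.105). A list of 39 such genes, 34 of them among the genes counted, was drawn up after these values had been seen and so is no independent evidence of direction. In ganglion cells 25 of 30 tested members were higher and 0 lower (25 and 0 unadjusted, 22 and 0 by DESeq2), beside 4.5% of all tested genes higher. The median was 1.45 against 0.02 for all tested genes. In amacrine cells 7 of 29 were higher and 0 lower (12 and 1 unadjusted, 1 and 0 by DESeq2), beside 2.86% of all tested genes higher, with a median of 0.12.

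A list of 8 general stress genes had 4 of 7 tested members higher in ganglion cells (summed level 1641 to 2094 CPM in female and 821 to 903 CPM in male cells), beside 4.5% of all tested genes. In amacrine cells 1 of 6 was higher (927 to 988 and 916 to 985 CPM), beside 2.86%. The list includes DDIT3 and ATF3, already described above. A sum without them was not made, so it is not separate from the amino acid response genes. A larger share of female than of male ganglion cells held the transcripts. With each cell thinned to 2000 UMIs, 49.0% ± 6.06 (SD, n = 4) of female and 6.01% ± 0.30 of male ganglion cells held a PHGDH UMI (52.5% and 8.41% unthinned), against 5.75% and 1.66% of amacrine cells. STC2 was seen in 21.8% ± 5.27 of female and 1.76% ± 0.36 of male ganglion cells. DDIT3 was seen in 59.6% ± 5.98 and 28.1% ± 0.94. Median depth was 2733 to 2855 UMIs in female and 2732 to 2888 in male ganglion cells. PHGDH also followed the HINTW count within ganglion cells, from 51.7 ± 3.37 CPM with no HINTW UMI to 198 ± 69.8 with 1 or 2, 452 ± 137 with 3 or 4 and 823 ± 138 with 5 or more. The female excess of PHGDH, STC2, CHAC1, DDIT3 and ASNS was called under every alternative tried in ganglion cells, with the lowest values under sexing by all other W genes (1.80, 1.75, 2.09, 1.08 and 1.14). In ganglion cells of E16 ventral retina, PHGDH stood at 120 and 112 CPM in female and 48.7 and 48.7 CPM in male cells of libraries 1 and 2. In E16 dorsal retina it stood at 64.5 and 68.7 CPM against 35.2 and 74.1 CPM, so dorsal library 2 ran the other way. STC2 stood at 20.4 to 36.7 CPM in female and 13.2 to 31.4 CPM in male cells over the 4 E16 libraries.

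**Figure D5:**
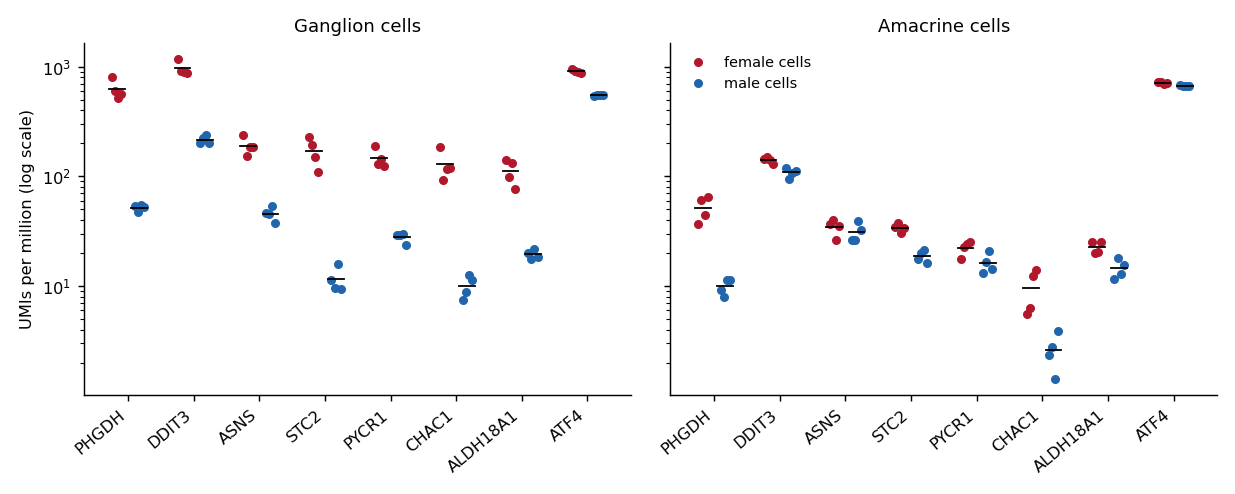
CPM (log axis) of 8 genes of serine, asparagine and proline synthesis and the amino acid response in female and male ganglion cells (left) and amacrine cells (right); points are 4 E12 libraries and bars their means. In ganglion cells female points stand above male points for all 8 genes; in amacrine cells the gap is smaller, and PYCR1 and ASNS overlap.

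Ganglion cells of the 2 sexes differed in other genes too. The ganglion marker list without the POU4F genes, which chose the cells, summed to 2444 to 2667 CPM in female and 3138 to 3417 CPM in male ganglion cells, and 6 of its 6 tested genes were lower (edgeR; 6 unadjusted, 5 by DESeq2), beside 4.72% of all tested genes. RBPMS2, an RNA-binding protein marking ganglion cells, stood at 550.4, 484, 432 and 468 CPM against 681, 648, 649 and 615 CPM, a difference of -0.44 ± 0.06 (SE; edgeR adjusted p = 5.2e-10). The neurofilament genes NEFL and NEFM, the synuclein gene SNCG and the factor gene EBF3 were lower, at -0.48, -0.54, -0.58 and -0.32. Amacrine markers were higher in 5 of 8 and lower in none (edgeR; 7 and 0 unadjusted, 3 and 0 by DESeq2), beside 4.5% of all tested genes higher, with a median of 0.99 and a summed level of 1591 to 1886 CPM in female against 1204 to 1238 CPM in male ganglion cells. The excess was not limited to amacrine markers. Horizontal cell markers summed to 194 to 256 CPM in female against 150 to 162 CPM in male ganglion cells, and bipolar markers to 348 to 390 against 248 to 262 CPM. Photoreceptor markers overlapped, at 338 to 594 against 324 to 363 CPM. Oligodendrocyte markers, at 79.1 to 100 against 92.7 to 112 CPM, and hemoglobin (below) leaned the other way. Scored doublets were 33.0% ± 3.70 of female and 13.1% ± 1.17 of male ganglion cells. Without scored doublets the differences were 3.95 for PHGDH, 4.23 for STC2, 2.39 for DDIT3 and -0.39 for RBPMS2, and among ganglion cells with no TFAP2 UMI they were 4.05, 4.48, 2.57 and -0.30. HBA1, a hemoglobin gene, was called lower at -2.91, which rests on 134 CPM in the male cells of library 3; without that library its difference was 0.45 and was not called. DESeq2 called 335 genes in ganglion cells, a minimum of 3000 UMIs left 287, and leaving out library 2 left 549.

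In amacrine cells, of which there were more female cells, fewer genes were called. PHGDH stood at 37.05, 60.6, 44.3 and 64.7 CPM in female and 9.15, 7.97, 11.4 and 11.3 CPM in male amacrine cells, a difference of 2.43 ± 0.15 (SE; edgeR adjusted p = 1.6e-20), at a far lower level than in ganglion cells. STC2, CHAC1 and DDIT3 were higher by 0.87, 1.85 and 0.42. ASNS did not pass, at 0.19 ± 0.14 (SE; edgeR adjusted p = 0.54). PPP1R17, a phosphatase inhibitor, stood at 15.7, 35.5, 15.96 and 9.56 CPM against 60.996, 36.8, 59.1 and 33.03 CPM, a difference of -1.16 ± 0.17 (SE; edgeR adjusted p = 4.8e-07). Female values were lower in every library, though female library 2 overlapped the male range. PVALB, the calcium-binding protein parvalbumin, stood at 3.70, 8.01, 4.35 and 2.94 CPM against 25.8, 6.33, 16.3 and 10.4 CPM, a difference of -1.40 ± 0.29 (SE; edgeR adjusted p = 5.2e-04), with library 2 running the other way. PPP1R17 and PVALB were chosen after their values were seen, and both reversed (0.86 and 0.82) when cells were sexed by all other W genes. HBBA, a hemoglobin gene, stood at 339, 580.2, 1.45 and 0 CPM against 1263, 624, 36.3 and 1.79 CPM and was called lower at -0.92; hemoglobin in these sums ranged from 0.735 to 4210 CPM between libraries. Amacrine markers without the TFAP2 genes, which chose the cells, summed to 1801 to 1888 CPM in female and 1929.7 to 2005 CPM in male amacrine cells. Of 6 tested, 2 were lower and 0 higher (edgeR, with 2 and 1 unadjusted and 0 and 0 by DESeq2), beside 2.61% of all tested genes lower. Bipolar markers summed to 691 to 709 CPM in female against 632 to 688 CPM in male amacrine cells. Photoreceptor markers, RBP4 included, summed to 825 to 872 against 683 to 757 CPM. Horizontal cell, progenitor or glial and cycling markers overlapped. Their part in the results was not tested. Scored doublets were 56.9% ± 7.32 of female and 45.3% ± 5.08 of male amacrine cells. DESeq2 called 168 genes, and leaving out scored doublets, library 3 or library 4 left 337, 362 or 368.

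The difference between classes was tested directly. For 379 of 10601 genes (3.58%) the female-male difference differed between ganglion and amacrine cells, with the female minus male log2 difference higher in ganglion cells for 200 (1.89%) and lower for 179 (1.69%). By adjusted p, DDIT3, DDIT4, PNRC1 (a nuclear receptor coactivator), STC2 and SAMD12 led. DDIT3 differed by 1.70 ± 0.10 (SE; edgeR adjusted p = 7.7e-22), being higher in females in both classes but more so in ganglion cells. STC2 differed by 2.97 ± 0.22 (SE; edgeR adjusted p = 1.5e-17). DDIT4 and PNRC1 differed by 1.43 and 0.66. SAMD12, a sterile alpha motif protein, stood at 1306, 1130.3, 1271 and 1502 CPM in female and 1789.6, 1801, 1819 and 1824 CPM in male ganglion cells, and at 822, 922, 939 and 934 CPM against 776, 851, 803 and 843 CPM in amacrine cells. It was lower in female ganglion cells (-0.49) and higher in female amacrine cells (0.16), a difference between classes of -0.68 ± 0.05 (SE; edgeR adjusted p = 7.0e-16). PHGDH and CHAC1 differed by 1.11 and 1.76, ASNS by 1.81, and ENC1 by 1.58 ± 0.15 (SE; edgeR adjusted p = 9.8e-13). Among Z genes, the female minus male difference was lower in ganglion than in amacrine cells for GNG10 and PTPRD, by -0.55 and -0.65, and higher for NTRK2 (1.94 ± 0.37 (SE; edgeR adjusted p = 2.8e-04)). No difference between classes was called for HINT1Z (-0.07 ± 0.07 (SE; edgeR adjusted p = 0.77)) or LOC100859072 (-0.05 ± 0.57 (SE; edgeR adjusted p = 0.99)). With a minimum of 3000 UMIs the PHGDH difference was 0.28 and was not called. That minimum left 48 genes, leaving out scored doublets 174 and leaving out library 2 215.

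Genes of sex steroid action and gonadal sex determination were mostly too low to test. Of 20 in the files, 5 were abundant enough to test over all cells and 0 differed (edgeR; 0 higher and 1 lower at an unadjusted p under 0.05, and 0 by DESeq2); 1 was tested in ganglion and 2 in amacrine cells, with 0 called by either tool and 0 at an unadjusted p under 0.05. HSD17B4, a Z-linked steroid-oxidising enzyme, stood at 18.6, 15.5, 14.9 and 13.2 CPM against 20.8, 17.01, 17.7 and 19.5 CPM, a difference of -0.29 ± 0.14 (SE; edgeR adjusted p = 0.13). DMRT1, the Z-linked gene required for testis development in the chicken, had no UMI in either sex, which allows up to 0.345 CPM over the female and 0.0974 CPM over the male sums. ESR1, an estrogen receptor, had 1 UMI in each sex.

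The values of 3 more genes, 2 on other chromosomes and 1 that the table does not place, were chosen after they were seen and are given with no test. ROBO3, an axon guidance receptor gene on chromosome 24, stood at 66.4, 54.8, 23.5 and 20.9 CPM in female and 1.42, 0.330, 0.352 and 0.334 CPM in male ganglion cells. LOC107049500 on chromosome 25 stood at 9.26, 9.15, 8.71 and 14.7 CPM in female and 0.339, 0, 0 and 0.298 CPM in male amacrine cells. LOC107054480, the gene without a place, stood at 31.9, 29.5, 18.6 and 32.6 CPM against 3.93, 4.06, 2.82 and 4.21 CPM over all cells. Female and male values did not overlap for any of these 3 genes, which follows from how they were chosen and is no evidence of its own. ROBO3 and LOC107049500 were near 0 in the male cells and rest on their female sums. In E16 ganglion cells, ROBO3 was at 0 to 4.32 CPM in female and 0 to 2.44 CPM in male cells, so the groups overlapped. LOC107049500 ran in the opposite direction there, at 1.98 to 3.77 CPM in female and 17.6 to 24.7 CPM in male cells. LOC100859072 and LOC112530494 kept their direction at E16, the latter at 677 to 921 CPM in female and 15.8 to 21.7 CPM in male cells.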

How the data were processed

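The deposited E12 matrices held raw UMI counts per gene and barcode; the submitters' processing notes name Cell Ranger 2.1.0 and the genome build GRCg6a. The E16 and E18 count matrices of the authors were used only for side values. The reference table (assembly bGalGal1.mat.broiler.GRCg7b) gave chromosome names only, for 18489 of 23726 genes (77.9%, holding 92.7% of E12 UMIs), 972 on Z and 49 on W; no coordinate or sequence was used.

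UMI counts were summed per library and sex, over all cells and within each class, giving 1723362 to 2707858 UMIs in female and 6867071 to 8875782 in male sums of all cells. In ganglion cells the sums held 316135 to 419349 and 2825744 to 3027229 UMIs, and in amacrine cells 1079687 to 1747751 and 2951001 to 4265383. Sums were tested with edgeR 4.0.16 (filterByExpr, TMM scaling, quasi-likelihood test, Benjamini-Hochberg adjustment over all tested genes, threshold 0.05) in R 4.3.3. Library was a block, because both sexes were captured together in each library; the difference between classes was the class by sex term. Single values were compared by exact permutation over the 4 library pairs. CPM is a gene's UMIs scaled to 1000000 UMIs in a sum, without TMM scaling. Floors and shares cover counting error only. In a test on simulated data, 98%, 54% and 94% of genes changed by 0.5 (log2) were recovered in all, ganglion and amacrine cells, and 100%, 99% and 100% of those changed by 1. The changed genes had a mean of at least 50 CPM, so these rates do not cover genes of lower level. The simulation gave every gene the same spread and no difference between libraries beyond depth.

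Doublets were not removed; a score from simulated sums within each library (0.8% expected per 1000 barcodes, 15 neighbours, 30 components, 2000 variable genes, scikit-learn 1.9.0 in Python 3.11.15) was used as an alternative. Alternatives were DESeq2 1.42.0, other scalings and filters, UMI limits, other sexing rules, each library left out and no block.

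The text names W genes of at least 10 UMIs, the 5 Z genes of largest and the 5 of smallest male excess among those of at least 50 CPM in male cells, up to 10 Z genes higher in female cells, up to 5 genes higher and 5 lower on other chromosomes (at least 20 CPM, same direction in every library), up to 5 genes that differed between classes, and members of the lists. The members and lists were chosen with earlier results of these data known, and genes said to be chosen after their values were seen follow no rule. A few genes that the rule or the lists name are not reported here.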

Additional observations from a re-analysis of the deposited data

Results flagged for a closer look

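POU4F2 in the female cells of library 3, at 116 CPM, stood far from the other 3 female libraries (87.0 to 91.6 CPM), while the male libraries ran from 291 to 352 CPM; chance gives such a gap in about 1 in 20 groups.

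The female minus male log2 difference was higher in ganglion than in amacrine cells, by edgeR's class by sex term, for DDIT3 (1.70), DDIT4 (1.43), PNRC1 (0.66), STC2 (2.97), CHAC1 (1.76), PHGDH (1.11) and NTRK2 (1.94), and lower for SAMD12 (-0.68). For NTRK2 this came with a lower female level in amacrine cells (-1.57) and no call in ganglion cells (0.40). Few amacrine cells of either sex held an NTRK2 UMI (above). Each of these 8 genes had the same direction in all alternatives tried for that term. The term was not fitted with cells sexed by other W genes, so its dependence on the sexing gene was not tested. With a minimum of 3000 UMIs the PHGDH difference was 0.28 and was not called. Scored doublets, which were 33.0% of female and 13.1% of male ganglion cells and 56.9% and 45.3% of amacrine cells, moved with the groups. Without scored doublets the differences between classes were 1.34 for PHGDH and 3.43 for STC2, 174 genes were called in place of 379, and 9 of 34 named genes lost their call.

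The 2304 cells with 1 or 2 HINTW UMIs entered no comparison. Their summed level of 10 other W genes was 34.7 CPM, against 3.11 CPM in male cells and 80.5 and 106 CPM in cells with 3 or 4 and 5 or more HINTW UMIs.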

How the results depend on the processing

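The direction of the Z-linked difference held under every alternative tried, and its size moved with the sexing rule and with doublets. With DESeq2, 1238, 335 and 168 genes were called in all, ganglion and amacrine cells; with a minimum of 3000 UMIs 1660, 287 and 130, and 48 between classes. With W genes silent at E18 for sexing, a rule that puts many female cells among the males (above), there were 715, 387 and 119. With all other W genes, a rule that counts NEDD4L, there were 110, 15 and 25. A female limit of 5 HINTW UMIs gave 560 in ganglion and 355 in amacrine cells. Leaving out scored doublets gave 337 in amacrine cells and 174 between classes, and ganglion cells without a TFAP2 UMI gave 520. Leaving out 1 library gave 2066 to 2387, 549 to 701 and 362 to 443, and 215 to 270 between classes. The Z median (log2) in all cells was -0.29 with 5 HINTW UMIs, -0.23 with 3000 UMIs, -0.33 without scored doublets, -0.22 with W genes silent at E18 and -0.17 with all other W genes. In ganglion cells it was -0.28 for 2000 to 4000 UMIs, -0.31 with 5 HINTW UMIs, -0.31 without a TFAP2 UMI, -0.23 with library totals, -0.19 with 3000 UMIs, -0.35 with no filter, -0.31 without scored doublets, -0.30 with W genes silent at E18 and -0.17 with all other W genes. In amacrine cells it was -0.20 with 3000 UMIs, -0.27 without scored doublets and -0.19 with W genes silent at E18. Leaving out 1 library gave -0.27 to -0.26, -0.27 to -0.24 and -0.23 to -0.21. The Z share difference in percentage points was -1.02, -0.369, -1.05 and -0.695 in all cells with 5 HINTW UMIs, all other W genes, without scored doublets and with W genes silent at E18. In ganglion cells it was -1.15, -0.300 and -1.05 with the first 3 of these, -0.758 with 3000 UMIs and -1.07 without a TFAP2 UMI; in amacrine cells it was -0.783, -0.517, -0.796 and -0.525 under the 4 rules in that order, and -0.579 with 3000 UMIs. Leaving out 1 library gave -0.892 to -0.860, -0.941 to -0.877 and -0.674 to -0.651. The ganglion share difference was -23.4 with 5 HINTW UMIs, -31.9 with 3000 UMIs, -23.3 without scored doublets, -11.0 with W genes silent at E18 and, reversed, 9.34 with all other W genes (-20.6 to -18.9 leaving out 1 library). The amacrine share difference was 21.0, 26.5, 9.77 and, reversed, -4.44 (16.4 to 17.7), doublets apart. The cause of these shifts was not tested.

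Without the library as a block, that is, without pairing the sexes by library, 2461, 780 and 392 genes were called and 294 between classes, and the Z medians were -0.27, -0.24 and -0.22.

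Among named genes, 62 values reversed, of which the 3 of NEDD4L are fixed by a sexing rule that counts it. Sexed by all other W genes, the log2 differences over all cells were NEDD4L 13.72, ZFR 0.28, SLC24A2 0.19, PHF24 0.54, GNG10 0.19, ENC1 -0.25, NFIB -0.27, RNF165 -0.24, JAK2 -0.29, MEGF10 -0.22, EGFLAM -0.25, FOXD1 -0.12, RASGRF2 -0.63, CNTFR 0.76, SYT4 0.10, PTPRD 0.097, LINGO2 0.092, RPL37 0.021, SYT13 0.12, IRX4 0.33, PNRC1 -0.085, SAMD12 0.15, RBPMS2 0.44, NEFL 0.15, NEFM 0.50, SNCG 0.47, EBF3 0.26, PVALB 0.67 and PPP1R17 0.64. In ganglion cells they were NEDD4L 12.47, ATP5A1Z 0.044, HINT1Z 0.028, ZFR 0.14, PHF24 0.12, NFIB -0.28, RNF165 -0.65, CNTFR 0.00014, RBPMS2 0.013, NEFM 0.13, SNCG 0.14 and LOC107054480 -1.77, and in amacrine cells NEDD4L 12.33, HMGCS1 0.15, JAK2 -0.14, NR2F1 0.0059, SYT4 0.11, CHAC1 -0.19, PNRC1 -0.036, SAMD12 -0.031, SNCG 0.42, PVALB 0.82 and PPP1R17 0.86. Sexed by W genes silent at E18, they were FOXD1 -0.00097, RASGRF2 -0.015 and CNTFR 0.31 over all cells, RBP4 -0.18 in ganglion and ALDH18A1 -0.11 and SNCG 0.064 in amacrine cells. With 3000 UMIs, NR2F1 came to 0.017 over all cells and 0.020 in amacrine cells and the class difference of PDZD2 to 0.23, and leaving out 1 library put the HBA1 difference in ganglion cells between -3.70 and 0.45. Of 93, 70 and 53 named genes called in all, ganglion and amacrine cells, 80 of 92, 59 of 69 and 19 of 26 with a DESeq2 adjusted p kept their call, 87 of 92, 63 of 67 and 41 of 43 did without scored doublets, 72 of 84, 48 of 61 and 21 of 32 with 3000 UMIs, 72 of 93, 58 of 67 and 32 of 50 with W genes silent at E18, and 23 of 92, 9 of 62 and 13 of 51 with all other W genes. Of 34 named class differences, 25 kept their call without scored doublets and 11 of 32 with 3000 UMIs. The ganglion comparison rests on 476 female cells, fewer than the amacrine comparison.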

Other observations

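In ganglion cells of the E16 retina, where sex was assigned in the same way, NTRK2 stood at 90.4 to 127 CPM in female and 107 to 141 CPM in male cells of 4 libraries, and the groups overlapped. CHAC1 stood there at 4.30 to 20.2 CPM in female and 2.24 to 9.05 CPM in male cells, also with overlap. LOC107054480, which female E12 cells held at a higher level, stood at 0.942 to 2.42 CPM in female and 0 to 1.81 CPM in male E16 ganglion cells.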
